A study of Mus musculus with 15 samples.

Results

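Broad H3K27ac domains are stretches of at least 5000 bp that were called as a single H3K27ac peak in secretory progenitors (Sec-Pro) or enterocyte progenitors (Ent-Pro) of the mouse intestinal crypt. The Sec-Pro list held 409 such peaks among 74483 (0.549%) and the Ent-Pro list 615 among 68764 (0.894%). Joining those that overlapped gave 720 domains, against 78965 H3K27ac regions when all peaks of both lists were joined in the same way. The domains made up 0.912% of these regions and 6.70% of their length. The members were chosen by H3K27ac peak length, so every H3K27ac value below is a description, whereas DNase I hypersensitive sites (DHS), ATOH1 binding and H3K4me2 had no part in the choice.

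Acetylation of histone H3 at lysine 27 is laid down by the coactivators p300 and CBP and marks promoters and enhancers in use. Most acetylated regions are short, while long unbroken stretches, described elsewhere as stretch enhancers, tend to lie around genes that define a cell's identity. H3K4me2 marks promoters and enhancers whether or not they are active, and DHS show where regulatory proteins have displaced nucleosomes. ATOH1 is the basic helix-loop-helix factor that every secretory cell of the gut epithelium requires. In the crypt, Notch signalling keeps it off in cells that go on to become enterocytes.

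All cells came from C57BL/6 mice. Sec-Pro were crypt cells enriched either by deletion of Rbpj, whose product carries the Notch signal to DNA, or by the Notch inhibitor dibenzazepine (DBZ), and Ent-Pro were crypt cells of Atoh1-/- mice. H3K4me2 was mapped in 7 libraries: Lgr5+ stem cells sorted for green fluorescent protein from Lgr5-eGFP-Cre mice (ISC), Rbpj-/- Sec-Pro, DBZ Sec-Pro, Ent-Pro replicates 1 and 2 (Ent-Pro 1 and Ent-Pro 2), goblet cells from Rbpj-/- villi (GOB) and enterocytes from Atoh1-/- villi (ENT). H3K27ac and DHS came from 1 library of each progenitor and ATOH1, pulled down with a FLAG antibody, from 1 Sec-Pro library. Whether Rbpj deletion or DBZ gave the Sec-Pro chromatin for the last 3 assays is not stated, and no sort is named for cells other than ISC. Lineage and genotype or treatment cannot be told apart here. No library of RNA was used, so the identity of the cells could not be checked against marker genes. Positions are in mm9, and genes are not named because the annotation used here is not in mm9.

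Read numbers behind the lists are unknown, so a stretch without a peak is not shown to lack the mark. The H3K4me2 lists held 63293 to 92279 peaks, with a shortest peak of 200 bp in Rbpj-/- Sec-Pro and Ent-Pro 2 and of 146 bp in the others. The progenitors are therefore compared within each kind of list. The ISC list reached a highest score of 37.7, against 218 to 321 in the other 6 lists, and covered 33.45 Mb against 57.0 to 75.04 Mb, which bears on every ISC value below. With 1 library a group, except Ent-Pro H3K4me2, no test between conditions could be made. Brackets give Wilson 95% intervals over regions, which cover counting error only, and regions are not replicates.

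The first question was whether domains were broad in the same places in both progenitors. Of the 720 domains, 299 held a broad peak in both lists, 315 in the Ent-Pro list alone and 106 in the Sec-Pro list alone. Being broad in 1 progenitor alone rarely meant that acetylation was missing from the other. In every one-sided domain the other progenitor had at least 1 H3K27ac peak. In the Sec-Pro-alone domains, Ent-Pro peaks covered a median of 93.3% of the length (quartiles 88.9% and 96.1%), and in the Ent-Pro-alone domains Sec-Pro peaks covered a median of 93.1% (quartiles 88.99% and 96.3%). What differed was how the stretch was divided, but the rule largely fixes this. A one-sided domain by definition holds no broad peak of the other list. High coverage there could come only in pieces or in a single peak too short to count as broad. The counts of pieces are thus a description and do not show that the progenitors differ. Ent-Pro acetylation was split into 2 or more peaks in 93 of 106 Sec-Pro-alone domains, and Sec-Pro acetylation in 296 of 315 Ent-Pro-alone domains. The longest peak of the other progenitor had a median of 3871 bp in the former and 3731 bp in the latter. It reached 4985 and 4996 bp, highest values that are capped by the same rule.

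**Figure D1:**
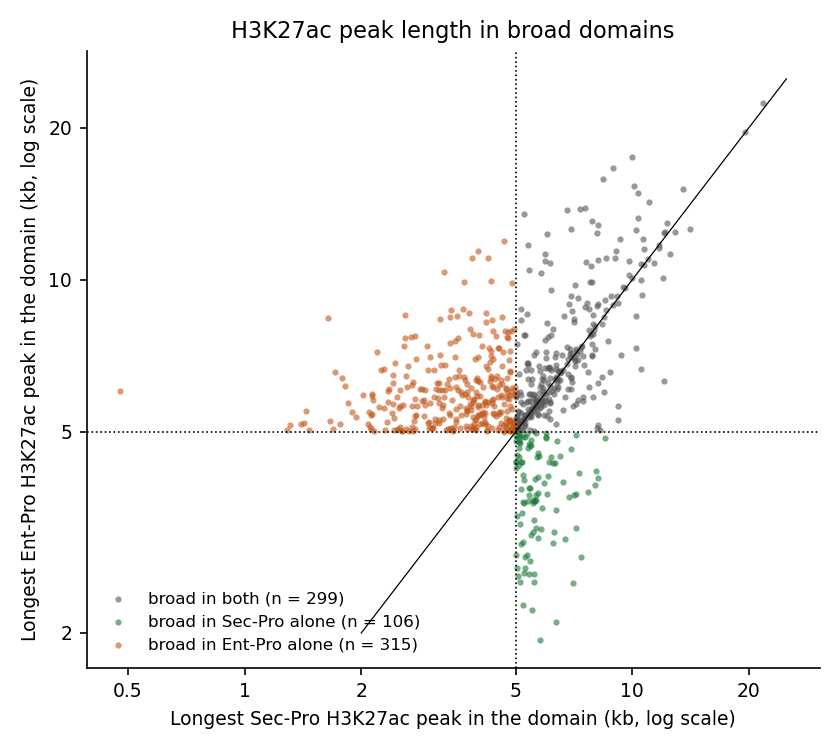
Longest Sec-Pro H3K27ac peak (x axis, kb, log scale) against longest Ent-Pro H3K27ac peak (y axis, kb, log scale) in each domain, 1 point a domain. Dotted lines mark 5 kb and the solid line equal lengths; one-sided domains spread from the dotted lines toward shorter peaks, with the other list's longest peak at a median of 3871 bp (Sec-Pro alone) and 3731 bp (Ent-Pro alone), and 1 Ent-Pro-alone domain stands apart at 477 bp.

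Peak lengths ran on without a break across the limit. In the Sec-Pro list the shortest broad peaks measured 5000, 5003 and 5004 bp and the longest left out 4996, 4996 and 4987 bp. In the Ent-Pro list these were 5006, 5014 and 5015 bp, and 4998, 4997 and 4997 bp. From 4500 bp to under 5000 bp there were 178 Sec-Pro and 264 Ent-Pro peaks, and from there to under 5500 bp 124 and 171. The authors' score, whose scale the files do not name, had medians of 100.4 below and 106 above the limit for Sec-Pro peaks, and of 154 and 162 for Ent-Pro peaks. Ent-Pro-alone domains outnumbered Sec-Pro-alone domains at limits of 4000 bp (578 against 185) and 7500 bp (66 against 26) too, but not when nearby peaks were joined. Taking the 409 longest peaks of either list gave 172 Sec-Pro-alone and 175 Ent-Pro-alone domains. Equal numbers of peaks hold these counts close together, so this setting cannot show which progenitor has more. Keeping equal numbers of peaks by score left 106 and 315, and could not remove a broad peak. Joining peaks up to 1 kb apart before the limit was applied gave 650 and 367, with 1963 broad in both, which turned the order round.

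Domains broad in both progenitors were the longest, with a median of 7115 bp (quartiles 5999.5 and 9122 bp), against 5551 bp for Sec-Pro alone and 5772 bp for Ent-Pro alone. The 5 longest of all were broad in both. Length was the value used for the choice, and a shared domain joins overlapping broad peaks of both lists. Both results thus follow in part from the rule. At chr6:94625866-94650217 a domain of 24352 bp was made of overlapping broad peaks, the longest being 12548 bp (Sec-Pro) and 11234 bp (Ent-Pro). At chr14:63853646-63876038 a Sec-Pro peak of 21753 bp lay over an Ent-Pro peak of 22349 bp, and at chr5:148110203-148129856 the peaks measured 19550 and 19654 bp. The domains at chr15:85493224-85510720 and chr14:99692438-99709085 were a single peak in Ent-Pro (17497 and 16648 bp) and 5 peaks each in Sec-Pro. These last were thus continuous in only 1 progenitor, although 94.3% and 91.9% of their length was acetylated in Sec-Pro.

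The longest Sec-Pro-alone domains measured 8511 bp (chr14:22645573-22654083), 8160 bp (chr1:135988458-135996617), 8079 bp (chr12:78293097-78301175), 8007 bp (chr18:21261607-21269613) and 7705 bp (chr3:129280192-129287896). Ent-Pro peaks covered 88.9% to 97.2% of them in 2 to 4 pieces. The longest Ent-Pro-alone domains lay at chr5:122297857-122309786 (11930 bp), chr7:26212446-26223852 (11407 bp), chr4:57146147-57157177 (11031 bp), chr7:148099143-148110166 (11024 bp) and chr14:70742954-70753324 (10371 bp). Sec-Pro peaks covered 90.1% to 97.7% of these in 3 to 5 pieces.

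In a few domains the peaks of the other progenitor left more of the length uncovered. Coverage by the other progenitor was under 70% in 2 Sec-Pro-alone and 5 Ent-Pro-alone domains. The clearest was chr15:94487348-94493376, a peak of 6029 bp in Ent-Pro where Sec-Pro had a single peak of 477 bp over 7.91% of the length. This domain held 1 DHS, found in Ent-Pro and not in Sec-Pro, and no ATOH1 peak. H3K4me2 covered 20.6% of it in ISC, 9.85% in Rbpj-/- Sec-Pro, 61.2% in DBZ Sec-Pro, 56.1% in Ent-Pro 1, 59.0% in Ent-Pro 2, 0% in GOB and 7.03% in ENT. The Sec-Pro preparations thus stood apart from each other there, and both villus lists were at or near 0. Sec-Pro peaks covered under 70%, though still most, of chr9:31717854-31723253 (65.7%) and chr2:172847055-172853612 (66.0%). The latter held 4 ATOH1 peaks, none of them under a DHS.

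In the opposite direction, Ent-Pro peaks covered least of chr5:148081696-148087269, where 46.9% of a Sec-Pro peak of 5574 bp was covered. Its H3K4me2 coverage was 79.3% in Rbpj-/- Sec-Pro and 54.2% in DBZ Sec-Pro, 98.6% and 40.9% in the Ent-Pro replicates, 96.0% in GOB and 96.7% in ENT. The Ent-Pro replicates differed by more than the progenitors did. At chr2:155629475-155634507 (62.4% under Ent-Pro H3K27ac peaks) and chr4:46601924-46607208 (73.9%), the highest Ent-Pro H3K27ac scores were at the 89.9 and 91.6 percentiles of the list. H3K4me2 there covered 25.4% to 71.5% in the 4 progenitor lists and 82.0% to 95.1% in GOB and ENT, with 20.6% and 2.80% in ISC. All 3 of these domains were thus covered more in both villus lists than in either Sec-Pro list and ISC.

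Open chromatin was looked at next. Most domains held a DHS, and DHS were fewer per kb than in the other H3K27ac regions as a whole, though not than in those of like length. A Sec-Pro DHS lay in 500 domains (69.4% [66.0 to 72.7]) and an Ent-Pro DHS in 590 (81.9% [79.0 to 84.6]), whereas 20% and 23.9% of all H3K27ac regions held one. Domains are longer than other regions, so the numbers per kb say more. Sec-Pro DHS numbered 0.159 per kb of domain and 0.240 per kb of the other 78245 H3K27ac regions, and Ent-Pro DHS 0.199 and 0.287. When only DHS with at least 50% of their length inside were counted, the values were 0.154 and 0.185 for Sec-Pro and 0.192 and 0.216 for Ent-Pro. In terms of length, Sec-Pro DHS covered 8.79% of the domains and 11.1% of the other regions, and Ent-Pro DHS 10.3% and 12.7%. Among the other regions the density was highest at 1 to 2 kb (0.290 and 0.335 per kb) and lower at 2 to 5 kb (0.215 and 0.253). The 148 other regions of 5005 to 9379 bp, which were built of shorter peaks, had 0.127 and 0.174 per kb, less than the 0.170 and 0.214 of domains of 5 to 6 kb and the 0.150 and 0.189 of domains of 6 to 8 kb. A low DHS density was therefore not particular to the domains.

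After joining both DHS lists, 125 domains held no DHS (17.4% [14.8 to 20.3], against 75.7% of all H3K27ac regions), 350 held 1, 144 held 2 and 101 held 3 or more. The median domain had a stretch of 4328 bp without any DHS, 65.0% of its length, and 572 domains had such a stretch of at least 3000 bp. Most of a typical domain was thus acetylated sequence away from any called open site. The most DHS were found at chr5:123583709-123594774 (6 Sec-Pro and 7 Ent-Pro DHS), chr12:58635476-58648428 (6 and 6) and chr7:29158121-29170117 (5 and 7), all broad in both progenitors. DHS inside domains had a median score percentile of 68.2 in the Sec-Pro list and 68.6 in the Ent-Pro list, against 75.3 and 75.2 for those in other H3K27ac regions. They were also shorter, with medians of 484 and 392 bp against 555 and 520 bp, although DHS of 1 kb or more made up 12.8% and 12.6% inside and 9.99% and 10.1% elsewhere.

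**Figure D2:**
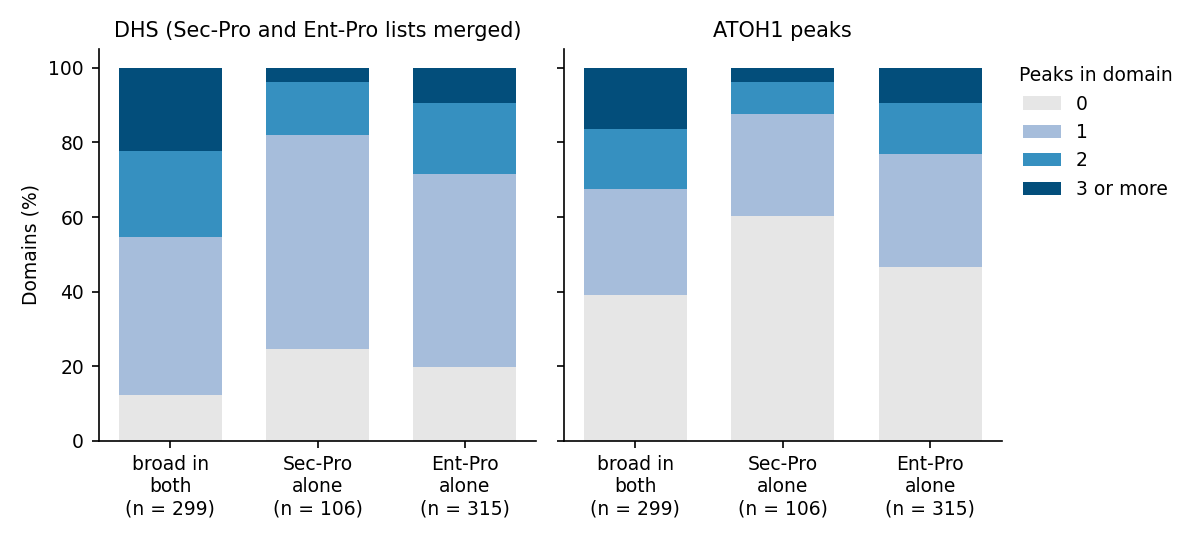
Share of domains (y axis, percent) with 0, 1, 2 or at least 3 DHS (left, both DHS lists merged) or ATOH1 peaks (right), by the progenitor in which the domain was broad. Of Sec-Pro-alone domains, 24.5% [17.3 to 33.5] lacked a DHS, against 19.7% [15.7 to 24.4] of Ent-Pro-alone and 12.4% [9.11 to 16.6] of shared domains. The first 2 of these intervals overlap. ATOH1 lay in 42 of 106 Sec-Pro-alone domains. Of all H3K27ac regions, 75.7% lacked a DHS and 9.01% held ATOH1.

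DHS found in 1 progenitor alone were mostly of Ent-Pro, whatever the class of the domain. Only 5 domains had a DHS in Sec-Pro without one in Ent-Pro, and 95 had the reverse. Of all 78965 H3K27ac regions, 59783 held no DHS, 15757 a Sec-Pro DHS and 18859 an Ent-Pro DHS. Few of these regions can thus have had a Sec-Pro DHS alone, so this was not particular to the domains. Of 783 Sec-Pro DHS inside domains, 96.6% [95.03 to 97.6] were found in Ent-Pro, as were 97.0% [96.7 to 97.3] of those in other H3K27ac regions. Of 981 Ent-Pro DHS inside domains, 76.6% [73.8 to 79.1] were found in Sec-Pro, against 80.3% [79.7 to 80.9] elsewhere in H3K27ac. The Ent-Pro list was the longer, at 1.21 DHS for each in Sec-Pro over the whole lists. That ratio was 1.22 in domains broad in both, 1.26 in those broad in Ent-Pro alone and 1.40 in those broad in Sec-Pro alone. Sec-Pro-alone domains held 3 DHS found only in Sec-Pro and 32 found only in Ent-Pro. Broad acetylation in Sec-Pro alone was thus not accompanied by more open sites in Sec-Pro than in Ent-Pro.

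DHS were present in fewer Sec-Pro-alone domains than in those broad in both. Sec-Pro DHS were found in 56.6% [47.1 to 65.6] of the former and 77.9% [72.9 to 82.3] of the latter, with 65.7% [60.3 to 70.7] for Ent-Pro alone. Length differs between the classes, so domains of 5 to 6 kb were also compared. There the shares were 53.8% [42.9 to 64.5] of 78 Sec-Pro-alone, 73.3% [62.4 to 82.0] of 75 shared and 66.1% [59.1 to 72.5] of 186 Ent-Pro-alone domains, in the same order but with overlapping intervals.

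**Figure D3:**
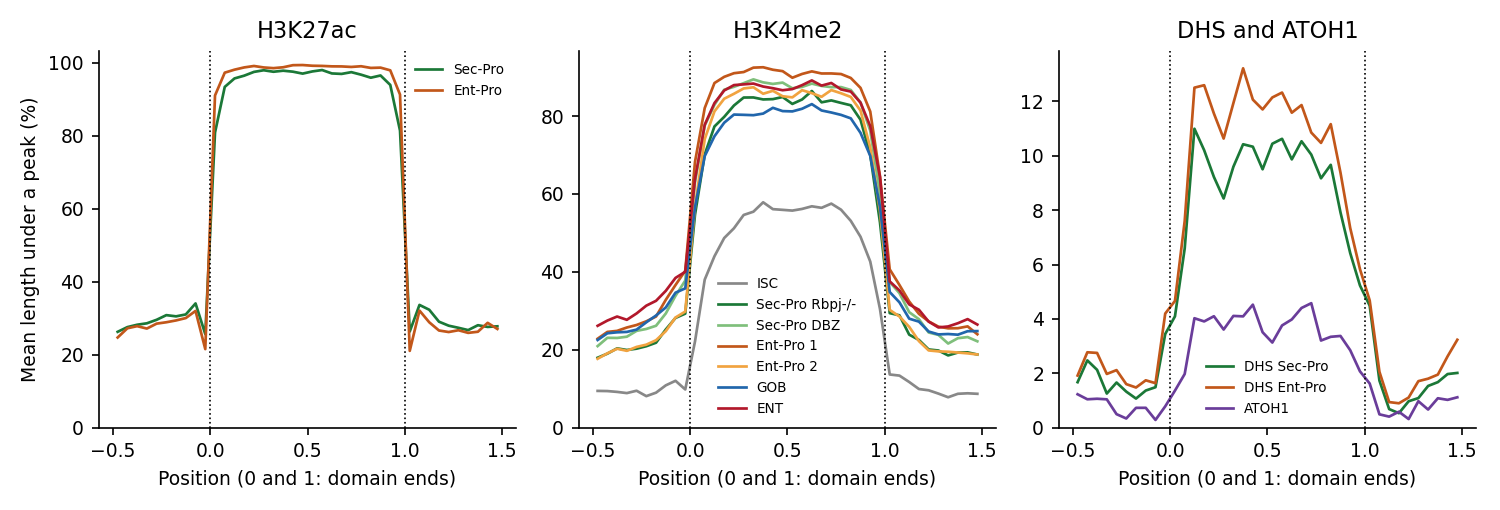
Mean share of length under a peak (y axis, percent) along all 720 domains scaled to equal length (x axis, 0 and 1 are the domain ends, with flanks of 0.5 domain lengths), for H3K27ac, the 7 H3K4me2 lists, and DHS and ATOH1. H3K4me2 was highest over the middle of the domains and DHS and ATOH1 lay in the interior more than at the ends, with 10.2% of the central 20% under a Sec-Pro DHS against 5.58% of the outermost 10% at each end.

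Along the domains, DHS covered the interior more than the ends. Sec-Pro DHS covered 10.2% of the central 20% of the length and 5.58% of the outermost 10% at each end, and Ent-Pro DHS 12.1% and 6.36%. For ATOH1 the values were 3.73% and 2.07%. In the outer part of the flanks, Sec-Pro DHS covered 1.75% and ATOH1 0.979%, while Sec-Pro H3K27ac still covered 27.8% and Ent-Pro H3K27ac 27.1%.

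ATOH1 peaks were found in 392 of the 720 domains (54.4% [50.8 to 58.0]), against 9.01% of all H3K27ac regions. Per kb, where the difference in length is taken out, ATOH1 numbered 0.142 in domains and 0.113 in the other H3K27ac regions, the opposite order to DHS. With at least 50% of the ATOH1 peak inside, the values were 0.140 and 0.0980. By length, ATOH1 numbered 0.127 per kb in other regions of 2 to 5 kb and 0.119 in the 148 of over 5 kb, and 0.133, 0.142, 0.164 and 0.132 in domains of 5 to 6, 6 to 8, 8 to 12 and at least 12 kb. The domains held 702 of the 15240 ATOH1 peaks, 8.56% of those that lay in H3K27ac. One peak was found in 209 domains, 2 in 100 and 3 or more in 83. ATOH1 peaks had a median score percentile of 58.7 inside domains, 58.5 in other H3K27ac regions and 43.6 outside H3K27ac.

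ATOH1 and DHS overlapped in part. Of the ATOH1 peaks inside domains, 42.6% [39.0 to 46.3] lay on a Sec-Pro DHS, compared with 50.5% [49.4 to 51.7] of those in other H3K27ac regions and 15.4% [14.6 to 16.2] outside H3K27ac. Seen from the DHS, 34.9% [31.6 to 38.3] of Sec-Pro DHS inside domains carried ATOH1 and 24.9% [24.2 to 25.6] of those in other H3K27ac regions did. An ATOH1 peak was present in 59.3% [55.3 to 63.2] of domains with a DHS in either list and in 31.2% [23.7 to 39.8] of those without. Among domains of 5 to 6 kb the same shares were 53.6% [47.7 to 59.4] and 33.3% [23.0 to 45.6].

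By class, ATOH1 was found in 60.9% [55.2 to 66.2] of domains broad in both, 53.3% [47.8 to 58.8] of those broad in Ent-Pro alone and 39.6% [30.8 to 49.1] of those broad in Sec-Pro alone. Ent-Pro came from mice without Atoh1, and domains broad only there held ATOH1 peaks of Sec-Pro at 0.147 per kb, against 0.101 in domains broad only in Sec-Pro. Among domains of 5 to 6 kb the shares were 52.0% [40.9 to 62.9], 53.8% [46.6 to 60.8] and 38.5% [28.4 to 49.6]. The last interval overlaps the others.

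The most ATOH1 peaks, 7, lay at chr7:29615374-29627768, which was broad in both progenitors, with 1 DHS in Sec-Pro and 4 in Ent-Pro. Only 2 of these 7 peaks lay under a DHS. The domain at chr5:148110203-148129856 held 6, of which 5 lay under a DHS. The domain at chr5:36715124-36723498 also held 6, with a top score of 77.5, and was broad in Ent-Pro alone. Sec-Pro acetylation there came in 3 peaks, the longest of 3196 bp. Its H3K4me2 coverage was 76.8% in GOB and 50.7% in ENT, with 45.1% and 63.1% in Rbpj-/- and DBZ Sec-Pro, 74.6% in Ent-Pro 1, 53.4% in Ent-Pro 2 and 50.8% in ISC. Among the longest Sec-Pro-alone domains, chr1:135988458-135996617 held 5 ATOH1 peaks, and GOB covered 98.3% of it against 80.7% in ENT. In the domains with 7 and 6 ATOH1 peaks that were broad in both, GOB and ENT covered nearly the same, 93.0% and 92.6% of the former and 97.2% and 99.3% of the latter. ENT exceeded GOB in the other 4 of the 5 longest Sec-Pro-alone domains.

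**Figure D4:**
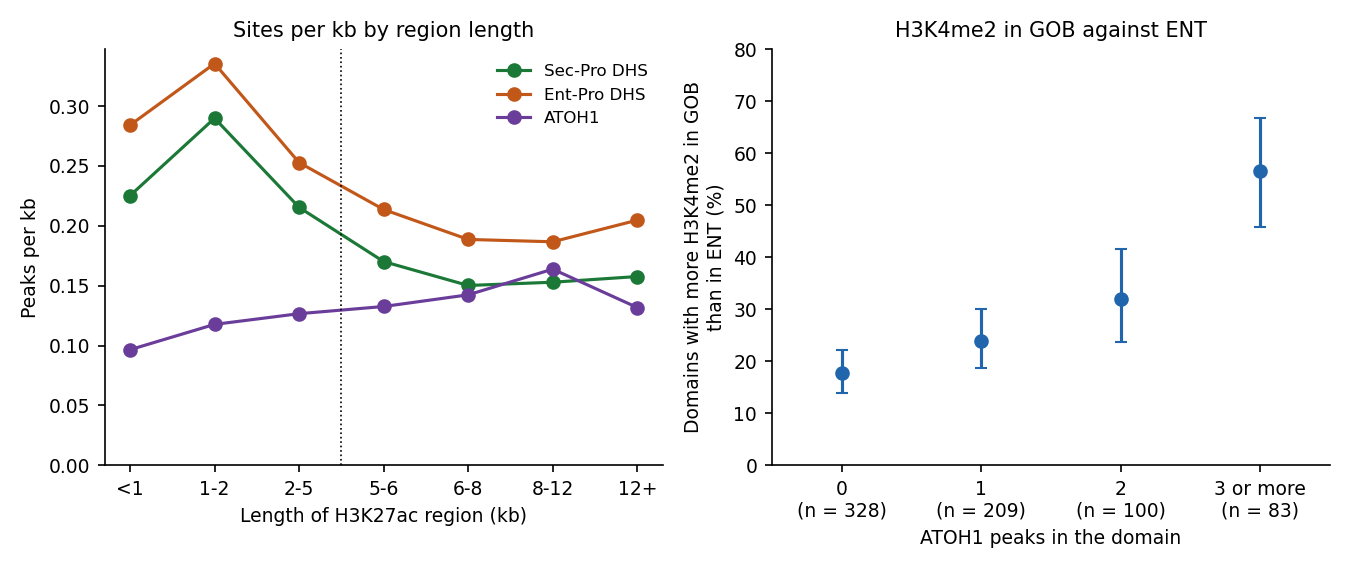
Left: Sec-Pro DHS, Ent-Pro DHS and ATOH1 peaks per kb (y axis) by length of the H3K27ac region (x axis, kb), with other regions left and domains right of the dotted line; DHS density is lower and ATOH1 density higher in domains as a whole than in the other regions. Right: share of domains covered more by H3K4me2 in GOB than in ENT (y axis, percent, bars are Wilson 95% intervals) by number of ATOH1 peaks, from 17.7% without ATOH1 to 56.6% with at least 3.

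H3K4me2 covered most of the domains in all lists but ISC. The median coverage was 53.8% in ISC, 86.0% in Rbpj-/- Sec-Pro, 89.6% in DBZ Sec-Pro, 93.4% in Ent-Pro 1 and 87.8% in Ent-Pro 2 (90.6% ± 3.98, SD, n = 2 library medians), 83.7% in GOB and 89.8% in ENT. At least 50% of the length was covered in 396 domains in ISC (23.9% of all H3K27ac regions reached this), in 632 in Rbpj-/- Sec-Pro (43.5%), 682 in DBZ Sec-Pro (54.0%), 702 in Ent-Pro 1 (55.7%), 666 in Ent-Pro 2 (46.4%), 617 in GOB (43.7%) and 672 in ENT (52.8%). Some H3K4me2 was found in all 7 lists in 715 domains, and in 35.1% of all H3K27ac regions. Length enters these contrasts, since 56013 of the 78965 H3K27ac regions were under 1 kb. In other regions of 2 to 5 kb the median coverage ran from 46.6% in ISC to 87.0% in Ent-Pro 1. In the 148 of over 5 kb it ran from 40.6% to 87.7%, and 137 of them reached 50% in Ent-Pro 1. High coverage was thus not particular to the domains, although their medians were higher in every list. In ISC the mark came in a median of 5 peaks a domain, the longest of 1319 bp at the median, whereas the other lists had 2 or 3 peaks with a longest of 3583 to 4569 bp. H3K4me2 was itself called as a peak of 5 kb or more in 228 to 312 domains in the lists other than ISC, and in 2 in ISC. Those lists held 370 to 683 such peaks in all, of which 232 to 315 overlapped a domain. The whole ISC list held only 2, so its count could not be higher.

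**Figure D5:**
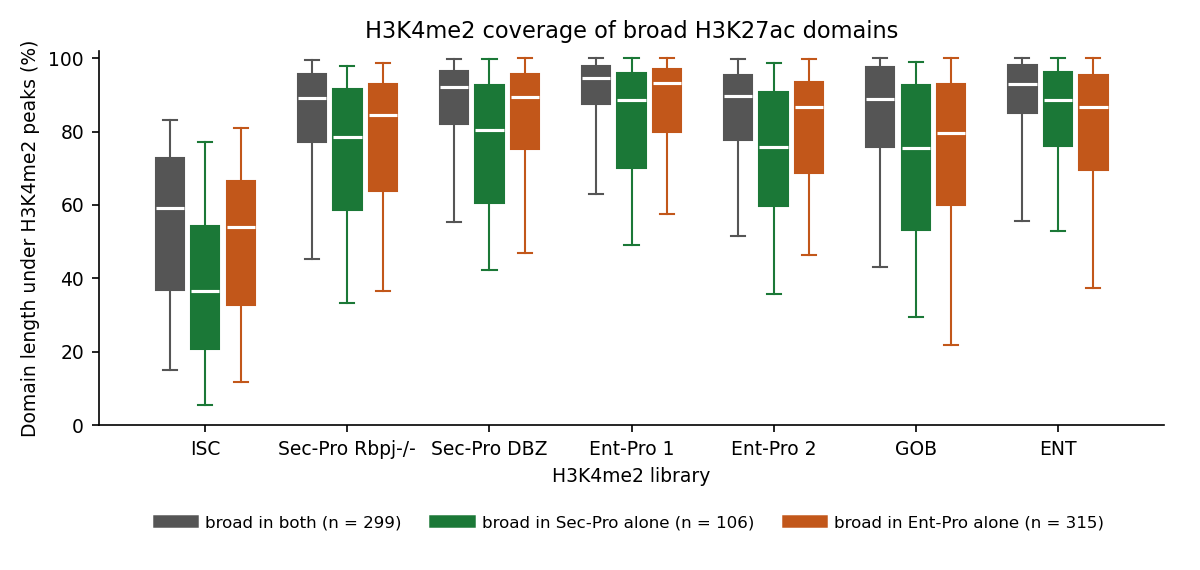
Share of each domain's length under H3K4me2 peaks (y axis, percent) in the 7 libraries (x axis), by class of domain; boxes are quartiles with the median in white, and whiskers run from the 5th to the 95th percentile. Coverage in ISC was lowest, and in ISC and the 4 progenitor lists domains broad in Sec-Pro alone had the lowest medians (36.6% in ISC, 75.9% in Ent-Pro 2).

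Domains broad in Sec-Pro alone had less H3K4me2 in the crypt lists than the other classes. Their median coverage was 36.6% in ISC, 78.6% and 80.4% in Rbpj-/- and DBZ Sec-Pro and 88.6% in Ent-Pro 1 and 75.9% in Ent-Pro 2. For domains broad in both it was 59.1%, 89.1%, 92.1%, 94.5% and 89.6% in the same order, and for Ent-Pro alone 53.9%, 84.4%, 89.4%, 93.1% and 86.8%. In ISC the order was the same at 5 to 6 kb, with 37.5%, 62.0% and 53.0% for Sec-Pro alone, both and Ent-Pro alone. In the villus the Sec-Pro-alone domains had 75.5% in GOB and 88.6% in ENT, against 79.7% and 86.6% for Ent-Pro alone and 88.8% and 92.9% for both. The quartile ranges of the classes overlapped in every list.

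One-sided acetylation was next set beside H3K4me2 in the same progenitors. Between the lists with 200-bp shortest peaks, Rbpj-/- Sec-Pro minus Ent-Pro 2 had medians of -0.02 points in Sec-Pro-alone, -0.56 in shared and -2.09 in Ent-Pro-alone domains. Between those with 146-bp shortest peaks, DBZ Sec-Pro minus Ent-Pro 1 had medians of -3.38, -1.89 and -1.83 points. Taken without sign, the difference within a domain had a median of 3.28 points in the first pair and 2.99 in the second, and of 5.08 points between the Ent-Pro replicates, whose lists are of different kinds. Rbpj-/- Sec-Pro exceeded Ent-Pro 2 in 276 domains (38.3%, against 22.8% of all H3K27ac regions) and DBZ Sec-Pro exceeded Ent-Pro 1 in 160 (22.2%, against 23.6%). Coverage was equal in 48.2% and 42.7% of all regions but in 16 and 27 domains. Of the regions that differed, Sec-Pro was the higher in 39.2% [35.7 to 42.9] of domains and 44.1% [43.6 to 44.6] of all regions in the first pair, and in 23.1% [20.1 to 26.4] and 41.1% [40.6 to 41.5] in the second. In the 148 other regions of over 5 kb, Sec-Pro was higher in 56 and lower in 90 in the first pair, and in 30 and 116 in the second. At 2 to 5 kb these counts were 3310 and 4301, and 2319 and 5104. A low Sec-Pro share was thus not particular to the domains. By class, the first share was 47.2% [37.9 to 56.6] for Sec-Pro alone, 39.5% [34.1 to 45.1] for both and 34.3% [29.3 to 39.7] for Ent-Pro alone, and the second 21.7% [14.9 to 30.5], 18.7% [14.7 to 23.5] and 25.7% [21.2 to 30.8]. The intervals of the classes overlapped in both pairs, and at 5 to 6 kb the first share was 42.3% [32.0 to 53.4], 45.3% [34.6 to 56.6] and 31.7% [25.5 to 38.7]. In both pairs of lists, Sec-Pro exceeded Ent-Pro in 11 of 106 Sec-Pro-alone domains and fell short of it in 39. The same counts were 25 and 142 of 299 domains broad in both and 36 and 149 of 315 in Ent-Pro alone. Over all 720 domains they were 72 and 330. Counts over both pairs were not made for the other H3K27ac regions, which leaned the same way within each pair. They are thus not shown to be particular to the domains.

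In the villus, ENT covered more of the domains than GOB did. GOB exceeded ENT in 187 domains (26.0% [22.9 to 29.3], against 18.7% of all H3K27ac regions), was exceeded in 503 (39.8% of all regions) and equalled it in 30 (41.5% of all regions). Of the regions that differed, GOB was the higher in 27.1% [23.9 to 30.5] of domains and 31.9% [31.5 to 32.4] of all regions. The median difference was -4.10 points (quartiles -13.3 and 0.04). A gap of 20 points or more was found in 6 domains in favour of GOB (0.833%, against 6.97% of all regions) and in 111 in favour of ENT (15.4%, against 21.6%). In the 148 other regions of over 5 kb, GOB was higher in 33 and lower in 108. Such a gap favoured GOB in 1 of them and ENT in 30. Secretory breadth of acetylation did not go with goblet H3K4me2: GOB exceeded ENT in 17.0% [11.0 to 25.3] of Sec-Pro-alone, 25.4% [20.8 to 30.6] of shared and 29.5% [24.8 to 34.8] of Ent-Pro-alone domains. At 5 to 6 kb these shares were 17.9% [11.0 to 27.9], 17.3% [10.4 to 27.4] and 27.4% [21.5 to 34.2].

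The share of domains covered more in GOB than in ENT did go with ATOH1. GOB exceeded ENT in 129 of 392 domains with ATOH1 (32.9% [28.4 to 37.7]) and in 58 of 328 without (17.7% [13.9 to 22.2]). By number of ATOH1 peaks the share was 23.9% [18.6 to 30.1] with 1, 32.0% [23.7 to 41.7] with 2 and 56.6% [45.9 to 66.8] with 3 or more, where GOB had a median coverage of 95.5% and ENT of 94.7%. The median difference between GOB and ENT moved from -8.35 points without ATOH1 to 0.44 with 3 or more peaks. Length differed as well, with medians of 5914 bp without ATOH1 and 5858, 6402.5 and 7340 bp with 1, 2 and 3 or more peaks. By length the share was 23.0% at 5 to 6 kb, 28.0% at 6 to 8 kb, 33.0% at 8 to 12 kb and 17.2% at 12 kb or more. Coverage in ENT was higher with ATOH1 too (medians of 91.8% with and 87.0% without). At a mean villus coverage of 80% or more, the shares were 35.9% [30.6 to 41.6] with and 24.1% [18.1 to 31.2] without ATOH1, with overlapping intervals. Median differences there were -0.88 and -3.11 points. Below 80% the shares were 25.0% [17.8 to 33.9] and 11.4% [7.45 to 17.2], and the medians -8.66 and -16.9 points. By class, the shares with and without ATOH1 were 32.4% and 14.5% in domains broad in both, 36.9% and 21.1% in Ent-Pro alone, and 19.0% [9.98 to 33.3] and 15.6% [8.71 to 26.4] in Sec-Pro alone. They were 29.0% [22.7 to 36.2] and 17.1% [12.1 to 23.4] at 5 to 6 kb, with overlapping intervals, and 34.3% and 17.4% in domains with a DHS. In domains without a DHS they were 20.5% [10.8 to 35.5] and 18.6% [11.8 to 28.1]. Other H3K27ac regions of 2 to 5 kb had 39.8% [37.8 to 41.8] and 24.1% [23.0 to 25.2], so the pattern was not particular to the broad domains. Joining H3K4me2 peaks up to 1 kb apart brought the shares to 26.0% with ATOH1, 33.7% with 3 or more peaks and 18.0% without. In the progenitor lists the intervals overlapped: Rbpj-/- Sec-Pro exceeded Ent-Pro 2 in 40.1% [35.3 to 45.0] of domains with and 36.3% [31.3 to 41.6] without ATOH1, and DBZ Sec-Pro exceeded Ent-Pro 1 in 24.2% [20.3 to 28.7] and 19.8% [15.9 to 24.5].

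Single domains showed the widest villus differences. GOB exceeded ENT most at chr12:81316367-81322446 (83.6% against 51.1%), chr8:97205111-97211038 (93.6% against 61.7%) and chr10:59431936-59438344 (71.5% against 40.3%). The first held 2 ATOH1 peaks, the second none and the last 1, and none of these was under a DHS. Rbpj-/- Sec-Pro and Ent-Pro 2 covered 45.5% and 46.4% of the first, and DBZ Sec-Pro and Ent-Pro 1 83.2% and 85.8%, with 52.0% in ISC. ENT exceeded GOB most at chr4:130267523-130272697 (87.6% against 22.4%), chr6:29718432-29723483 (87.5% against 40.1%) and chr7:91833386-91838478 (92.0% against 46.3%). In all 3 of these the 4 progenitor lists covered 71.9% to 97.9%. GOB covered less than each progenitor list there, and the first and last were broad in Sec-Pro alone.

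A small group of domains carried acetylation with little H3K4me2. In 8 domains (1.11%) all lists covered under 50%, whereas 27.6% of all H3K27ac regions were under 50% in the 6 lists other than ISC. Such regions were less frequent among the domains, but 56013 of all 78965 regions were under 1 kb. The lowest mean coverage was found at chr8:129287192-129294453 (19.5% over the 7 lists), chr16:18639804-18646089 (21.3%) and chr1:59952161-59957670 (25.3%). The first was broad in both progenitors and H3K27ac covered 99.8% and 98.9% of it, whereas H3K4me2 covered 2.20% in ISC, 10.6% and 20.5% in Rbpj-/- and DBZ Sec-Pro, 27.8% in Ent-Pro 1, 19.95% in Ent-Pro 2, 20.5% in GOB and 35.1% in ENT. None of the 3 held a DHS or an ATOH1 peak. The 125 domains without a DHS had lower H3K4me2 as a group, with medians of 32.5% in ISC, 63.9% to 83.1% in the progenitor lists, 59.7% in GOB and 73.8% in ENT, against 56.3%, 87.9% to 94.1%, 86.6% and 92.0% for the 595 domains with a DHS.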

How the data were processed

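Per the labels, chromatin was immunoprecipitated for H3K4me2, H3K27ac or FLAG-tagged ATOH1, or digested with DNase I. CASAVA 1.7, Bowtie 0.12.7 and MACS2 with build mm9 are named in the submitters' processing notes. No source used here gives their settings. The authors deposited 1 peak list per library for 12 of 15 samples, with the start and end of each peak (0-based) and a score of unnamed scale, whose lowest value lay between 2.00 and 2.72. The 3 input samples were not analysed here.

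Peaks of at least 5000 bp were merged where they overlapped by at least 1 bp. DHS and ATOH1 peaks overlapping a domain by at least 1 bp were counted, and H3K4me2 coverage is the percent of domain length under peaks. Other H3K27ac regions are merged peaks of both lists that overlap no domain. Positions are printed 1-based. Python 3.11.15, NumPy 2.4.6, pandas 2.3.3, SciPy 1.17.1 and matplotlib 3.10.9 were used. On simulated lists, 220 of 220 planted domains, classes, DHS counts and coverages were recovered. Nothing in the labels says whether the Ent-Pro replicates came from separate animals.

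Named domains were the 5 longest of each class, the 3 with the most DHS, the most ATOH1 peaks, the lowest mean H3K4me2 coverage, the largest GOB-ENT difference either way, and the least H3K27ac in the other progenitor. The members, this rule and the alternatives were chosen with earlier results of these data known.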

Additional observations from a re-analysis of the deposited data

How the results depend on the processing

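Limits of 4000 and 7500 bp gave 1414 and 161 domains, with 651 and 69 broad in both, 185 and 26 in Sec-Pro alone and 578 and 66 in Ent-Pro alone. Joining H3K27ac peaks up to 1 kb apart first gave 2980 domains, 1963 broad in both and 650 in Sec-Pro alone. Taking the 409 longest peaks of each list, an alternative chosen after seeing the data, gave 172 in Sec-Pro alone and 175 in Ent-Pro alone. Equal numbers of peaks hold these counts close together. The limits of 4000 and 7500 bp moved the shares with a Sec-Pro DHS to 65.4% and 82.0%, with an Ent-Pro DHS to 77.7% and 85.1% and with ATOH1 to 48.2% and 67.1%. Using the upper 50% of each list by score gave 58.6%, 69.3% and 38.9%, and 0.0833 ATOH1 peaks per kb. In the upper 50%, domains still had fewer Sec-Pro DHS (0.116 against 0.196 per kb) and Ent-Pro DHS (0.148 against 0.229) and more ATOH1 (0.0833 against 0.0657) than the other H3K27ac regions.

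Median H3K4me2 coverage in ISC was 51.4% and 58.5% at 4000 and 7500 bp, 40.5% in the upper 50% by score and 72.7% with H3K4me2 peaks up to 1 kb apart joined. For Rbpj-/- Sec-Pro the values were 84.4%, 88.8%, 81.0% and 94.2% in that order, for Ent-Pro replicate 1 92.3%, 94.2%, 91.6% and 99.0%, for GOB 82.0%, 86.4%, 80.04% and 95.9%, and for ENT 88.2%, 92.5%, 87.4% and 98.9%. For DBZ Sec-Pro they were 92.2% at 7500 bp, 87.3% and 97.4%, and for Ent-Pro replicate 2 85.4% at 4000 bp, 83.0% and 94.8%. The Ent-Pro mean was 90.2% and became 96.3% with nearby peaks joined. Lists cut to the covered length of ISC (33.45 Mb) gave 70.9% in Rbpj-/- Sec-Pro, 69.2% in DBZ Sec-Pro, 77.2% and 75.4% in Ent-Pro replicates 1 and 2 (mean 77.7%), 63.5% in GOB and 71.5% in ENT, all above the 53.8% of ISC. Without Ent-Pro replicate 1 or 2 the Ent-Pro median was 87.8% or 93.4%.

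The share of domains covered more in GOB than in ENT was 31.8% in lists of equal covered length and 22.4% with nearby peaks joined. Domains without ATOH1 reached 25.0% in lists of equal covered length, where those with ATOH1 stood at 37.5%. Joining nearby peaks brought domains with ATOH1 to 26.0% and those with 3 or more peaks to 33.7%, which stood at 42.9% above 7500 bp and at 67.9% with the upper 50% of ATOH1 by score. Of 156 alternative values over 22 results, 64 moved beyond the limit set for them (1.5 times for a count or a number per kb, the 95% interval or the spread of the Ent-Pro libraries for other values) and 92 did not. Over all results, 15 moved by over 1.5 times. The results for autosomes alone and for equal numbers of peaks by score all stayed within. Neither setting could move the counts of domains far. Autosomes alone kept 717 of 720 domains. The H3K27ac cut by score removed only low-scoring Sec-Pro peaks, and the lowest-scoring broad Sec-Pro peak stood at the 71.3 percentile. The cause of the shifts in the values that moved was not tested. No paired analysis was possible because no test was made and only Ent-Pro carries replicate numbers.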

Other observations

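Broad domains were spread over all autosomes and the X chromosome. They made up 0.556% of H3K27ac regions on chromosome 13 and 1.26% on chromosome 15, the extremes among autosomes, and 0.209% on the X chromosome, with 3 domains among 1435 regions. Chromosome 11 held the most, 74. Chromosome 19 held 27 domains, of which 11 were broad in both progenitors, 16 in Ent-Pro alone and 0 in Sec-Pro alone. Neighbouring domains lay a median of 1054 kb apart, but 50 of 700 neighbour pairs were at most 10 kb apart. These formed 47 chains with 97 domains. The chains with 3 domains lay at chr16:18625263-18659785, chr17:88006916-88040829 and chr2:103120761-103144864. Of the 50 close pairs, 23 joined domains of the same class. No test was made of these counts.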
